A study of Arabidopsis thaliana with 5 samples.

Results

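The napins of Arabidopsis thaliana are the 2S albumins SESA1 (AT4G27140), SESA2 (AT4G27150), SESA3 (AT4G27160), SESA4 (AT4G27170) and SESA5 (AT5G54740). These 5 genes were taken by their identifiers from a table of 37336 genes, and all 5 passed the filter on low counts, as did 19003 genes in all. The RNA came from whole developing seeds of 2 genotypes, sequenced in 3 libraries of the mutant dof4.1-3 and in 2 libraries of the wild type Col-0. The labels and the methods give an age of 9 days after pollination for both genotypes, and the results of the study give 10. dof4.1-3 is a T-DNA insertion line in the Col-0 background, with the insertion in exon 2 of DOF4.1 (AT4G00940), a gene for a Dof-type transcription factor. It is a single allele, written dof4-1 in the labels, and no source used here says whether the replicate libraries came from separate plants. If they did not, the p-values given here reflect technical spread alone.

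Napins are small, cysteine-rich seed storage proteins that are made in the embryo during seed maturation. Each is synthesised as a precursor that enters the endoplasmic reticulum, is sorted to the protein storage vacuole and is cut there into a small and a large chain held together by disulphide bonds. The stored protein supplies nitrogen and sulphur to the seedling after germination. In Arabidopsis the napins and the 12S globulins, called cruciferins, make up most of the storage protein of the seed, and genes of both families are switched on by the maturation regulators ABI3, FUS3, LEC2 and LEC1 with bZIP factors.

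SESA1 to SESA4 form a tandem array on the plus strand of chromosome 4 of the TAIR10.1 assembly, at chr4:13607329-13608031, chr4:13609341-13610075, chr4:13611796-13612563 and chr4:13613596-13614283. The array spans 6955 nt, with gaps of 1309, 1720 and 1032 nt between neighbours. SESA5 lies alone on the minus strand of chromosome 5, at chr5:22238358-22239187. Each gene is a single exon that holds the whole coding sequence, of 495 nt in SESA1, 513 nt in SESA2, 495 nt in SESA3, 501 nt in SESA4 and 498 nt in SESA5, and no other annotated gene overlaps any of them. The coding sequences of the array were 80.6% to 89.7% identical to each other in global alignments, with SESA2 and SESA3 the closest pair and SESA1 the farthest of the array from the rest, at 80.6% to 80.7%. SESA5 was 60.9% to 61.5% identical to the genes of the array. The first 60 coding bases of the array genes, read 5′ to 3′ from the TAIR10.1 genome, are shown because they let a reader see how far such close copies can be told apart by short reads. Capitals mark bases that differ from SESA1.
SESA1: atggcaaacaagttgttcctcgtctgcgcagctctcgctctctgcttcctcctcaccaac
SESA2: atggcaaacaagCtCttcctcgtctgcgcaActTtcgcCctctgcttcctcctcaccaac
SESA3: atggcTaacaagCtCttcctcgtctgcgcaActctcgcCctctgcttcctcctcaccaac
SESA4: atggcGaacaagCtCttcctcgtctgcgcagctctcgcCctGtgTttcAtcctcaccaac

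Copies this alike could share reads, so every word of 50 bases, the read length of the study, was looked up in the genome on both strands. All 654 words of the SESA1 transcript occurred at 1 place only, as did all 686 words of SESA2, 719 of SESA3, 639 of SESA4 and 781 of SESA5. An exact 50-base read from any of the 5 transcripts therefore had a single perfect match. Reads with sequencing errors were not examined, and the line of the count table for reads that map to several places is listed at 0. The study designed its napin RT-PCR primers on stretches shared by SESA1, SESA2 and SESA5, and the number of mismatches to each of the 5 transcripts was counted. Amplification was not measured here. The reverse primer matched SESA1 without a mismatch, SESA2 with 1 mismatch, and SESA3, SESA4 and SESA5 with 3 mismatches each. The forward primer had 1 mismatch to SESA1, SESA2 and SESA3, 2 to SESA5 and 3 to SESA4. The reverse primer and the matching strand of its site in each transcript are shown because they tell where the members differ from it, with capitals where a site differs from the primer.
primer: atcaattgctggcaagctcttag
SESA1: atcaattgctggcaagctcttag
SESA2: atcaattTctggcaagctcttag
SESA3: atcCatCTctggcaagctcttag
SESA4: atcCatCTctggcaagctcttag
SESA5: atcCattgctTgcaaCctcttag

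The 250 bases before each annotated transcript start are shown so that a reader can set the promoters of the 5 genes side by side. A link between these sequences and the levels given further on was not tested. They are written 5′ to 3′ in the direction of transcription. Capitals mark the RY motif CATGCA and the G-box CACGTG on either strand, the sites of B3 factors such as ABI3 and of bZIP factors.
SESA1: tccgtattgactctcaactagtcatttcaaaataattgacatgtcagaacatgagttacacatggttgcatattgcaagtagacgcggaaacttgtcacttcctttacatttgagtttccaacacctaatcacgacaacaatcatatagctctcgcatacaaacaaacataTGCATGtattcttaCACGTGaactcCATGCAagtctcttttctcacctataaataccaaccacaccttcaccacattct
SESA2: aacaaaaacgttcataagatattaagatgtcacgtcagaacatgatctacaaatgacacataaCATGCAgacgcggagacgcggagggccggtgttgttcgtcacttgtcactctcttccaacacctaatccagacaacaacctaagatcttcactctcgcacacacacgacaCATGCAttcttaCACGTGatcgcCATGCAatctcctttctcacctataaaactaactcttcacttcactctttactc
SESA3: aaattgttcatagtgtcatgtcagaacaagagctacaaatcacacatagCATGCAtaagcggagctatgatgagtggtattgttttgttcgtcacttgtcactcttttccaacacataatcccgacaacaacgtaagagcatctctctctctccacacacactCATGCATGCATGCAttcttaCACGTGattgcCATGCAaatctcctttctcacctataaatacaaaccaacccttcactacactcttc
SESA4: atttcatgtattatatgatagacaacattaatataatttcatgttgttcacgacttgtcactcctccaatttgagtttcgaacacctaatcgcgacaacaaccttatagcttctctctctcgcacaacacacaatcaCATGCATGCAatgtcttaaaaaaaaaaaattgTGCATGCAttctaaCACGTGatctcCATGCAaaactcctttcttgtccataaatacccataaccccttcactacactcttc
SESA5: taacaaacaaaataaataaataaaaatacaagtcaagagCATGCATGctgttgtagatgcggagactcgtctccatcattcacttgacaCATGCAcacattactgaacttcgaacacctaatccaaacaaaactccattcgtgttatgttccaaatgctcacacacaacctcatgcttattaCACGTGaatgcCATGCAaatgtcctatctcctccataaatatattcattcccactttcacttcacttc

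These windows lie at chr4:13607079-13607328, chr4:13609091-13609340, chr4:13611546-13611795, chr4:13613346-13613595 and, for SESA5 on the minus strand, chr5:22239188-22239437. CATGCA was found 2 times before SESA1, 3 times before SESA2, 7 times before SESA3, 6 times before SESA4 and 4 times before SESA5, with overlapping matches counted on both strands. Of 27443 promoters of protein-coding genes of the same length, 8.43% held at least 1 such match, 1.66% held 2 or more and 0.328% held 3 or more. CACGTG, which is its own reverse complement, was found 1 time in each of the 5 windows and in 6.49% of all promoters. In each window a CATGCA followed the G-box at the same spacing: the G-box began 65 bases before the start in SESA1 and SESA2, 67 in SESA3 and SESA4 and 68 in SESA5, and the RY motif began 54, 54, 56, 56 and 57 bases before it. TGTAAAG, the prolamin box of cereal storage protein genes, was found 1 time before SESA1, on the reverse strand, and in none of the other windows, against 4.53% of all promoters. Its last letters are those of AAAG, the core letters bound by Dof factors, which was found 2, 2, 2, 1 and 1 times before SESA1 to SESA5 against a median of 4 over all promoters, 98.0% of which held it. CNAACAC, an element of a rapeseed napin promoter, was found 1 time before SESA1, SESA2, SESA3 and SESA5 and 2 times before SESA4, against 10.2% of all promoters with a match. A match is only a description of the letters.

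The libraries held 20101091, 21722055 and 21053818 counts in genes for dof4.1-3 replicates 1, 2 and 3, and 16500028 and 17049283 for Col-0 replicates 1 and 2. DOF4.1 itself had 3, 4 and 4 counts in dof4.1-3 and 1 and 14 counts in Col-0, numbers too low for a check of the genotypes. Over the 19003 tested genes, 0.963% were called lower in dof4.1-3 by edgeR, 9.52% were lower at an unadjusted p under 0.05, 3.29% were called lower by DESeq2, and 18.3% had every dof4.1-3 library below both Col-0 libraries. In the other direction the shares were 0.121% called higher by edgeR, 6.33% higher at an unadjusted p under 0.05 and 1.36% called higher by DESeq2. Every dof4.1-3 library was above both Col-0 libraries in 16.3%. Of the marker lists, the 10 embryo genes were all tested and 0 passed in edgeR or DESeq2, with 1 higher and 1 lower at an unadjusted p under 0.05. In this list 5 log2 fold changes were positive and 5 negative, with a median of 0.06, and 1 gene (PDF2) had non-overlapping higher and 2 genes (STM and CUC1) non-overlapping lower values. Their summed level was 205 to 262 CPM (TMM-scaled counts per 1000000 counts) in dof4.1-3 and 183 to 191 CPM in Col-0, and most of it came from the epidermal genes PDF2, at 151 CPM in dof4.1-3 and 102 CPM in Col-0 on average, and ATML1, named after its values were seen, at 79.2 CPM in dof4.1-3 and 71.1 CPM in Col-0. Of the 8 seed coat genes 7 were tested, and all 7 log2 fold changes were negative. In edgeR 1 passed as lower and 4 were lower at an unadjusted p under 0.05. DESeq2 called 3 lower, and 5 had non-overlapping lower values. The 8 genes summed to 917 to 1009 CPM in dof4.1-3 and 1441 to 1681 CPM in Col-0. Among them the anthocyanidin reductase gene BAN had 14.3, 9.71 and 11.7 CPM in dof4.1-3 and 41.4 and 44.8 CPM in Col-0. Of the 7 endosperm genes 4 were tested and 0 passed in edgeR. At an unadjusted p under 0.05 in edgeR 2 were lower, and DESeq2 called 2 lower. Of the 4 log2 fold changes 3 were negative and 1 positive (MEA, at 1.09, with overlapping groups). The 7 genes summed to 50.6 to 90.8 CPM in dof4.1-3 and 137 to 146 CPM in Col-0. Most of this sum came from ALE1, at 45.8 CPM in dof4.1-3 and 105 CPM in Col-0 on average, and ZOU, at 18.3 and 34.3 CPM. The 6 silique wall genes were all tested, and all 6 log2 fold changes were negative. In edgeR 1 passed as lower and 3 were lower at an unadjusted p under 0.05. DESeq2 called 1 lower, and 5 had non-overlapping lower values. These genes summed to 46.9 to 49.4 CPM in dof4.1-3 and 72.5 to 82.2 CPM in Col-0. None of the defining genes of these lists was at 0 in every library. These sums did not overlap between the genotypes, as the napins did not, and their part in the results below was not tested. In bulk seeds, fewer cells of a type and less RNA per cell cannot be told apart.

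The 5 napins took 8.0%, 16.4% and 9.10% of all gene counts in dof4.1-3 replicates 1, 2 and 3, against 6.11% and 3.54% in the Col-0 libraries. Every dof4.1-3 library stood above both Col-0 libraries, and the lowest dof4.1-3 share was 1.31 times the highest Col-0 share. The Wilson intervals at 95% were at most 0.0312 percentage points wide, so the counting error, which is all they cover, was far below the spread between replicates. The share averaged 11.2% ± 4.58 in dof4.1-3 (SD, n = 3) and 4.83% ± 1.82 in Col-0 (SD, n = 2), a difference of 6.35 percentage points. Leaving out each library in turn gave 3.73 to 7.93 points, with the lowest value without dof4.1-3 replicate 2, and as a share of TPM the difference was 10.99 points. A two-sided exact permutation test over the 10 assignments of the libraries gave p = 0.2, where the smallest possible value is 0.1. A share of this size differed by up to 2.05 times between dof4.1-3 libraries and by 1.73 times between Col-0 libraries.

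SESA3 and SESA2 were the most abundant napins. SESA3 had the most counts of all genes in dof4.1-3 replicates 1 and 2 and in both Col-0 libraries, and SESA2 ranked 2 in all 5 libraries. In dof4.1-3 replicate 3, SESA3 ranked 4, behind the cruciferin CRC, SESA2 and the cruciferin CRA. Levels of different genes were compared per transcript length, as TPM (transcripts per 1000000 transcripts). By mean TPM the order was SESA3, SESA2, SESA4, SESA1 and SESA5 in both genotypes. In dof4.1-3 the means were 80630 ± 34100, 74780 ± 21970, 22890 ± 7183, 13740 ± 6350 and 2126 ± 653 TPM in this order (SD, n = 3). In Col-0 they were 37190 ± 12050, 32050 ± 9916, 11420 ± 4323, 2828 ± 900 and 811 ± 309 TPM (SD, n = 2). The ranges of SESA3 and SESA2 over libraries overlapped in both genotypes. Within libraries, SESA3 stood above SESA2 in Col-0, at 45710 against 39060 TPM in replicate 1 and 28670 against 25040 TPM in replicate 2. The same order held in dof4.1-3 replicates 1 and 2, while SESA2 was above SESA3 in dof4.1-3 replicate 3, at 72690 against 57400 TPM. SESA4 stood above SESA1 within every library, although their ranges overlapped in dof4.1-3. SESA5 was the lowest napin in all 5 libraries.

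SESA1, the first gene of the array, had 3499, 13540 and 7892 CPM in dof4.1-3 replicates 1, 2 and 3, against 1966 and 945 CPM in Col-0 replicates 1 and 2. The lowest dof4.1-3 value was 1.78 times the highest Col-0 value, the widest gap of the 5 napins. SESA2 had 26720, 68900 and 43660 CPM in dof4.1-3, against 23180 and 11280 CPM in Col-0. SESA3, which stands next to it, had 33500, 88240 and 36030 CPM in dof4.1-3, against 28340 and 13500 CPM in Col-0. The groups of both genes did not overlap, but dof4.1-3 replicate 1 was only 1.15 and 1.18 times Col-0 replicate 1. SESA4, the last gene of the array, had 8724, 20580 and 10500 CPM in dof4.1-3, against 8044 and 3530 CPM in Col-0, where dof4.1-3 replicate 1 and Col-0 replicate 1 differed by 1.08 times. SESA5 had 816, 2200 and 1463 CPM in dof4.1-3, against 690 and 302 CPM in Col-0.

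**Figure D1:**
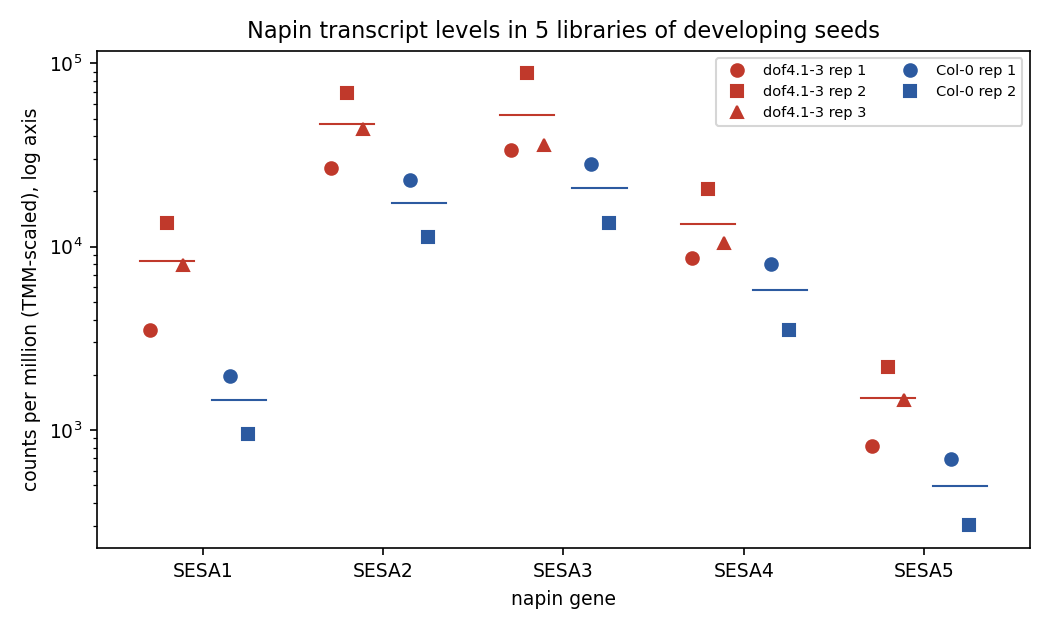
TMM-scaled CPM of each napin gene on a log axis, with dof4.1-3 in red to the left of Col-0 in blue, 1 point per library (circle, square and triangle for replicates 1, 2 and 3) and a line at each group's mean. All 5 genes have every dof4.1-3 point above both Col-0 points, dof4.1-3 replicate 2 is the highest library of each gene, and the gap is widest for SESA1.

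For all 5 napins dof4.1-3 replicate 2 was the highest library and Col-0 replicate 2 the lowest. For 5 of 5 napins no dof4.1-3 library was as low as a Col-0 library, where 16.3% of the 19003 tested genes had this order. SESA1 averaged 8312 ± 5035 CPM in dof4.1-3 (SD, n = 3) and 1455 ± 722 CPM in Col-0 (SD, n = 2), a log2 fold change of 2.51 ± 0.60 (SE) in edgeR. SESA2 averaged 46430 ± 21220 CPM in dof4.1-3 and 17230 ± 8410 CPM in Col-0, with a log2 fold change of 1.43 ± 0.52. For SESA3 the means were 52590 ± 30900 CPM in dof4.1-3 and 20920 ± 10490 CPM in Col-0, with a log2 fold change of 1.33 ± 0.56. The corresponding values of SESA4 were 13270 ± 6394 CPM in dof4.1-3 and 5787 ± 3192 CPM in Col-0, with 1.20 ± 0.50 on the log2 scale. SESA5 averaged 1493 ± 693 CPM in dof4.1-3 and 496 ± 274 CPM in Col-0, with a log2 fold change of 1.59 ± 0.49. All 5 log2 fold changes were above 1, which held for 2.4% of tested genes.

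None of the 5 napins passed an adjusted p of 0.05 in edgeR's quasi-likelihood test with Benjamini-Hochberg adjustment over all tested genes, a call that 0.121% of genes reached as higher in dof4.1-3. The edgeR adjusted p was 0.0914 for SESA1, 0.162 for SESA5, 0.226 for SESA2, 0.280 for SESA4 and 0.289 for SESA3. At an unadjusted p of 0.05 in edgeR, 5 of 5 napins were higher in dof4.1-3, against 6.33% of tested genes. DESeq2 called 3 of 5, against 1.36% of tested genes called higher, with adjusted p of 0.0269 for SESA1, 0.0146 for SESA2 and 0.00791 for SESA5, and 0.0686 for SESA4 and 0.400 for SESA3. Single libraries decided the calls of 2 napins in edgeR. Without dof4.1-3 replicate 1, which had the lowest napin levels of its group, SESA1 passed with a log2 fold change of 2.88 (edgeR adjusted p = 0.00901), and SESA5 passed with 1.89 (edgeR adjusted p = 0.0404). Without dof4.1-3 replicate 2 the edgeR log2 fold change of SESA1 was 1.98 (adjusted p = 0.0459). Calls rose over the whole table in both subsets, so these passes are not particular to the napins. Without dof4.1-3 replicate 1, edgeR called 162 of 18721 tested genes higher in dof4.1-3, and without dof4.1-3 replicate 2 it called 181 of 18704. With all libraries it called 23 of 19003 higher.

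Libraries of one genotype differed in napin level, and the 5 genes did not share every step. Between the Col-0 libraries the step was nearly the same for every member, from 2.05 times for SESA2 to 2.29 times for SESA5, with replicate 1 the higher. dof4.1-3 replicate 2 exceeded dof4.1-3 replicate 1 by 3.87 times for SESA1 and by 2.36 to 2.70 times for the other 4. dof4.1-3 replicate 3 exceeded dof4.1-3 replicate 1 by 2.26 times for SESA1, 1.79 times for SESA5 and 1.63 times for SESA2, but by only 1.20 times for SESA4 and 1.08 times for SESA3. The SD over the 5 libraries of the log2 ratio between 2 members gives how far they moved apart. It was smallest for SESA2 with SESA5, on different chromosomes, at 0.122, and for SESA3 with SESA4, neighbours in the array, at 0.126. It was largest for SESA1 with SESA4, at 0.735, and for SESA1 with SESA3, at 0.723, and the SD of SESA1 with its neighbour SESA2 was 0.583. Within the array the SD of SESA1, SESA3 and SESA4 was smallest with an adjacent gene. SESA2 had a smaller SD with SESA4, at 0.202, than with its neighbour SESA3, at 0.264. A link to position in the array was not tested.

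Within the napin counts the make-up of the Col-0 libraries was almost the same, although their levels differed by about 2.1 times. SESA1 made up 4.78%, 7.0% and 7.93% of the napin counts in dof4.1-3 replicates 1, 2 and 3, against 3.16% and 3.20% in the Col-0 libraries. SESA1 thus took a larger share in every dof4.1-3 library than in either Col-0 library. SESA3 made up 45.7%, 45.6% and 36.2% of the napin counts in dof4.1-3, against 45.5% and 45.7% in Col-0. SESA2 made up 36.5%, 35.6% and 43.9% in dof4.1-3, against 37.2% and 38.2% in Col-0. The low SESA3 share and the high SESA2 share were both in dof4.1-3 replicate 3, and the other libraries lay within 3 percentage points of each other for both genes. SESA4 made up 11.9%, 10.6% and 10.6% in dof4.1-3 and 12.9% and 11.9% in Col-0, and SESA5 1.11%, 1.14% and 1.47% in dof4.1-3 and 1.11% and 1.02% in Col-0. None of the 5 shares passed the two-sided exact permutation test, whose smallest p is 0.1, with p from 0.2 for SESA1 and SESA4 to 1 for SESA2, and 0.5 to 1 after Benjamini-Hochberg adjustment over the 5. Without dof4.1-3 replicate 3 the mean differences of SESA2 and SESA3 changed sign, to -1.67 and 0.0607 percentage points, against 0.937 and -3.10 with it.

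**Figure D2:**
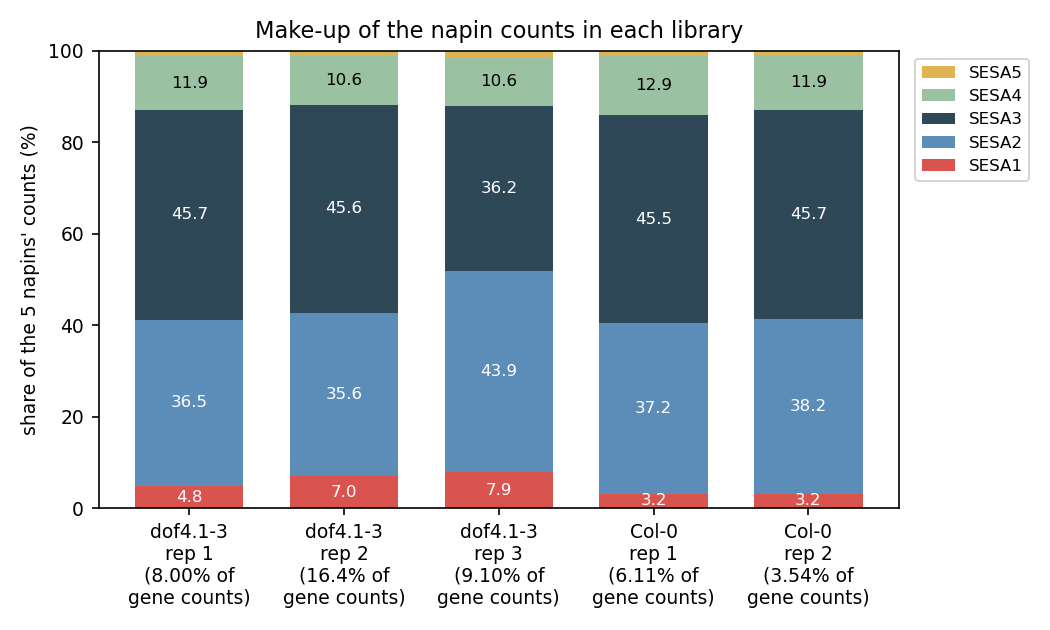
Stacked bars of the share of each napin gene in the counts of the 5 napins (percent), 1 bar per library with dof4.1-3 left of Col-0 and the napins' share of all gene counts under each bar. SESA1, at the bottom, takes 4.78% to 7.93% in dof4.1-3 and 3.16% to 3.20% in Col-0, and dof4.1-3 replicate 3 departs from the other 4 bars in SESA2 and SESA3.

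Ratios to SESA5, the napin outside the array, compare members within a library and are free of library scaling. SESA1 had 4.29, 6.16 and 5.39 counts per SESA5 count in dof4.1-3 replicates 1, 2 and 3, against 2.85 and 3.13 in Col-0 replicates 1 and 2. The groups did not overlap, and the geometric mean ratio in dof4.1-3 was 1.75 times that in Col-0, a difference of 0.81 in log2. The ratio of SESA2 was 32.8, 31.3 and 29.8 in dof4.1-3, against 33.6 and 37.4 in Col-0, a log2 difference of -0.18, also without overlap. On the log2 ratios both reached p = 0.1, the smallest two-sided value of the exact permutation test with 3 against 2 libraries. Both were at 0.2 after Benjamini-Hochberg adjustment over the 4 ratios. SESA3 had 41.1, 40.1 and 24.6 counts per SESA5 count in dof4.1-3, against 41.1 and 44.7 in Col-0, with a log2 difference of -0.32 (exact permutation p = 0.4). SESA4 had 10.7, 9.35 and 7.18 in dof4.1-3, against 11.7 in both Col-0 libraries, with a log2 difference of -0.38 (exact permutation p = 0.2, adjusted 0.267). The ratio of SESA1 thus differed in the direction opposite to the other 3 array genes, and dof4.1-3 replicate 3 was the lowest library for SESA2, SESA3 and SESA4. Leaving out each library in turn gave log2 differences of 0.69 to 0.95 for SESA1, -0.26 to -0.10 for SESA2, -0.45 to -0.08 for SESA3 and -0.51 to -0.22 for SESA4.

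**Figure D3:**
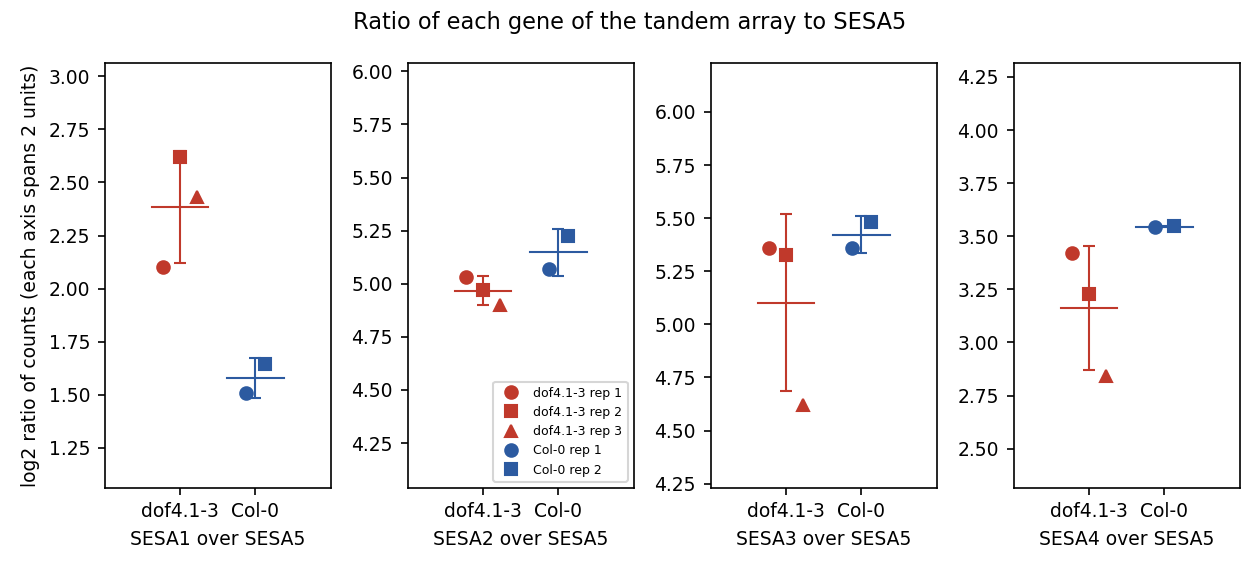
log2 ratio of the counts of SESA1, SESA2, SESA3 and SESA4 to those of SESA5 in each library, with dof4.1-3 (red) left of Col-0 (blue), lines at the group means and bars of 1 SD. Each panel spans 2 log2 units. SESA1 lies higher in dof4.1-3 by 0.81, while the means of SESA2, SESA3 and SESA4 lie lower in dof4.1-3 by 0.18 to 0.38 on the log2 scale.

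The cruciferins, hexameric 12S globulins and the other main storage proteins of the seed, were set beside the napins. CRA (AT5G44120) had 22130, 52430 and 39940 CPM in dof4.1-3 and 16160 and 9352 CPM in Col-0, and CRC (AT4G28520) had 23850, 61990 and 52860 CPM in dof4.1-3 and 16390 and 9130 CPM in Col-0. CRB (AT1G03880) had 8759, 22170 and 14150 CPM in dof4.1-3 and 4863 and 2915 CPM in Col-0. Of the 4 cruciferins 0 passed the adjusted threshold in edgeR and 4 passed it in DESeq2, against 1.36% of tested genes called higher. All 4 log2 fold changes were positive, and their median was 1.90 against 1.43 for the napins and 0.03 for all tested genes. The napins had 1.32, 1.39 and 0.920 counts per cruciferin count in dof4.1-3, against 1.65 and 1.37 in Col-0. These ranges overlapped, with a log2 difference of -0.33 (two-sided exact permutation p = 0.5). Leaving out single libraries gave -0.15 without dof4.1-3 replicate 3, -0.20 with Col-0 replicate 1 left out and -0.47 with Col-0 replicate 2 left out. dof4.1-3 replicate 3 was the one library with fewer napin than cruciferin counts. Per cruciferin count, SESA1 was at 0.0632, 0.0975 and 0.0729 in dof4.1-3 and 0.0521 and 0.0438 in Col-0, and SESA2 at 0.483, 0.496 and 0.404 in dof4.1-3 and 0.614 and 0.523 in Col-0. Neither pair of groups overlapped, and they lay in opposite directions. The exact permutation p on these plain ratios was 0.2 for SESA1 and 0.1 for SESA2 (not adjusted). SESA4 was also lower without overlap, at 0.158, 0.148 and 0.0970 in dof4.1-3 and 0.213 and 0.164 in Col-0 (exact permutation p = 0.2 on the plain ratios). The groups of SESA3 and SESA5 overlapped in this ratio.

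Oleosins coat the oil bodies of the embryo and are also made during seed filling. None of the 5 oleosins passed the threshold in edgeR or DESeq2, 0 of 5 had an unadjusted p under 0.05 in edgeR, and 0 of 5 had groups that did not overlap. Of all tested genes, 6.33% were higher and 9.52% lower at that unadjusted p. Groups that did not overlap were found in 16.3% of tested genes as higher and 18.3% as lower. OLE4 (AT3G27660), the member with the smallest p, had 1754, 2559 and 2295 CPM in dof4.1-3 and 1812 and 1040 CPM in Col-0, with a log2 fold change of 0.63 ± 0.32 (edgeR adjusted p = 0.382). The most abundant, OLE1 (AT4G25140), had 13490, 16780 and 21620 CPM in dof4.1-3 and 13500 and 7679 CPM in Col-0, with a log2 fold change of 0.71 ± 0.39 (edgeR adjusted p = 0.415). The median over the 5 oleosins was 0.38, with a range of -0.11 to 0.71 in log2. The napins had 2.66, 5.57 and 2.53 counts per oleosin count in dof4.1-3, against 1.96 and 1.72 in Col-0. All dof4.1-3 libraries were above both Col-0 libraries in this ratio, and replicate 2 stood apart from the other 2 (two-sided exact permutation p = 0.3 on the plain ratios).

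The genes next to the napins did not follow them. Before the array stand COBL11, AT4G27120 (a DDRGK domain protein) and AT4G27130 (a SUI1 family translation initiation factor), and after it ATK2 (AT4G27180, a kinesin) and 2 genes for NB-ARC disease resistance proteins. AT4G27130, 861 nt from SESA1, had 115, 98.5 and 118 CPM in dof4.1-3 and 125 and 106 CPM in Col-0. ATK2, 539 nt from SESA4, had 80.0, 86.2 and 96.2 CPM in dof4.1-3 and 66.3 and 80.7 CPM in Col-0. Both overlapped between genotypes, with log2 fold changes of -0.06 ± 0.20 (edgeR adjusted p = 0.904) and 0.25 ± 0.20 (edgeR adjusted p = 0.570). AT4G27120 was at 26.3 ± 1.75 CPM in dof4.1-3 (SD, n = 3) and 30.7 ± 1.83 CPM in Col-0 (SD, n = 2), and the other 3 genes were at or under 0.196 CPM in every library. Around SESA5, G18F (AT5G54730), 988 nt away and related to the autophagy protein ATG18, had 3.83, 4.39 and 3.79 CPM in dof4.1-3 and 4.50 and 7.64 CPM in Col-0. AT5G54760, another SUI1 family gene, had 157, 157 and 162 CPM in dof4.1-3 and 264 and 200 CPM in Col-0, with a log2 fold change of -0.55 ± 0.21 (edgeR adjusted p = 0.240). Of the 12 neighbours 7 were tested, of which 0 passed the threshold in edgeR or DESeq2. At an unadjusted p under 0.05 in edgeR 1 was lower, against 9.52% of tested genes. AT4G27120, G18F, AT5G54750 and AT5G54760 had every dof4.1-3 library below both Col-0 libraries, an order found in 18.3% of tested genes. The log2 fold changes of the 7 ran from -0.61 to 0.25, below the lowest napin value of 1.20.

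**Figure D4:**
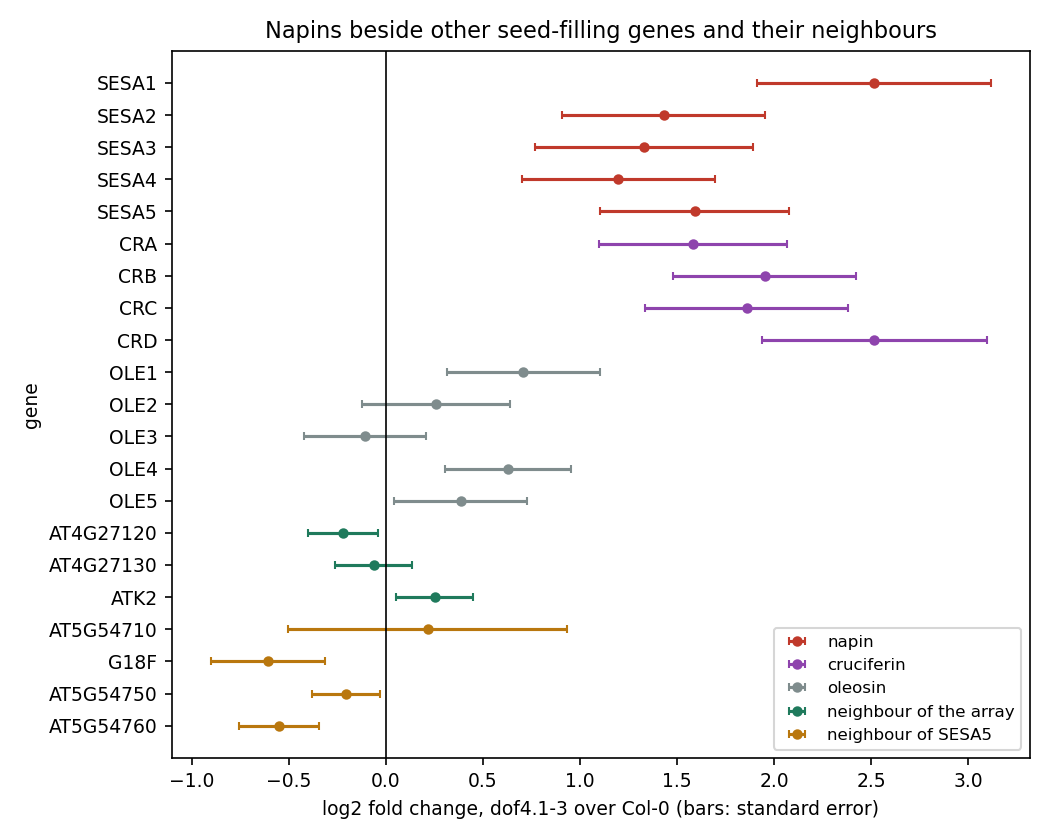
log2 fold change of dof4.1-3 over Col-0 with its standard error for the 5 napins, the 4 cruciferins, the 5 oleosins and the 7 tested neighbours of the napin genes. The napins lie between 1.20 and 2.51 and the cruciferins between 1.58 and 2.52, while the oleosins lie between -0.11 and 0.71 and the neighbours between -0.61 and 0.25.

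Among 17 regulators of storage protein genes, LEC1 (AT1G21970), a subunit of the NF-Y factor that promotes the maturation programme, fell. It had 19, 15.6 and 22.9 CPM in dof4.1-3 and 56.5 and 46.4 CPM in Col-0, with a log2 fold change of -1.42 ± 0.21 (edgeR adjusted p = 0.0209). After removal of the trend over gene length its log2 fold change was -1.18, and its adjusted p in edgeR was 0.0617. ABI3 (AT3G24650), the B3 factor that binds RY motifs of napin promoters, had 150, 115 and 146 CPM in dof4.1-3 and 57.7 and 93.0 CPM in Col-0. Its log2 fold change was 0.86 ± 0.25 (edgeR adjusted p = 0.140), and DESeq2 called it higher (adjusted p = 0.0321). bZIP67 (AT3G44460) had 34.3, 57.2 and 36.3 CPM in dof4.1-3 and 22.3 and 25.2 CPM in Col-0, and EEL (AT2G41070), another bZIP factor of the seed, had 195, 266 and 219 CPM in dof4.1-3 and 156 and 127 CPM in Col-0. These groups did not overlap either, and the edgeR adjusted p was 0.147 for bZIP67 and 0.188 for EEL. LEC2 (AT1G28300), a B3 factor, had 2.64, 2.55 and 2.81 CPM in dof4.1-3 and 4.01 and 5.54 CPM in Col-0 (edgeR adjusted p = 0.196). Of the 17 regulators 0 passed as higher and 1 as lower in edgeR, against 0.121% and 0.963% of tested genes. At an unadjusted p under 0.05 in edgeR 4 were higher and 2 lower, against 6.33% and 9.52%. DESeq2 called 1 higher (ABI3) and 1 lower (LEC1), against 1.36% and 3.29%. The median log2 fold change of the 17 was 0.27.

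Of 11 genes that process napin precursors or sort them to the vacuole, 0 passed as higher and 1 as lower in edgeR. The shares of tested genes called so were 0.121% and 0.963%. The median log2 fold change of the list was 0.00. In this list 2 genes were higher and 3 lower at an unadjusted p under 0.05, against 6.33% and 9.52% of tested genes. DESeq2 called 1 higher and 2 lower, against 1.36% and 3.29%. The gene that fell was gammaVPE (AT4G32940), a vacuolar processing enzyme known mainly from vegetative tissues, with 314, 321 and 251 CPM in dof4.1-3 and 700 and 634 CPM in Col-0 (log2 fold change -1.17 ± 0.22, edgeR adjusted p = 0.0419). After removal of the length trend its log2 fold change was -1.27, larger in size, and its adjusted p in edgeR was 0.0583. betaVPE (AT1G62710), the main processing enzyme of storage proteins in seeds, had 326, 355 and 318 CPM in dof4.1-3 and 251 and 215 CPM in Col-0 (log2 fold change 0.52 ± 0.21, edgeR adjusted p = 0.274). PASPA2 (AT1G62290), an aspartic protease, had 1191, 1436 and 1526 CPM in dof4.1-3 and 944 and 574 CPM in Col-0 (edgeR adjusted p = 0.191, DESeq2 adjusted p = 0.0332). deltaVPE (AT3G20210), a processing enzyme of the seed coat, had 190, 195 and 186 CPM in dof4.1-3 and 297 and 275 CPM in Col-0 (edgeR adjusted p = 0.188, DESeq2 adjusted p = 0.0336).

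The annotation names 118 other genes as members of the superfamily of protease inhibitors, lipid transfer proteins and 2S albumins that share the cysteine pattern of the napins. Of these, 46 were tested, 45 had no counts in any library, and 0 passed as higher and 8 as lower in edgeR, against 0.963% of all tested genes called lower. At an unadjusted p under 0.05, 2 were higher and 22 lower, against 6.33% and 9.52% of tested genes. DESeq2 called 0 higher and 16 lower, against 1.36% and 3.29%. The median log2 fold change of the 46 was -0.80. The 8 were AT4G12825, AT5G09370, AT2G15325, AT1G43667, AT1G32280, AT1G43666, AT3G53980 and AT5G38180. The most abundant of them, AT5G38180, had 34.1, 37.6 and 21.4 CPM in dof4.1-3 and 97.4 and 72.4 CPM in Col-0 (edgeR adjusted p = 0.0341). With the trend over gene length removed, 1 of the 8, AT4G12825, still passed (edgeR adjusted p = 0.0481). It had 0.456, 0.271 and 0.416 CPM in dof4.1-3 and 4.07 CPM in both Col-0 libraries.

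The genes most like the napin sum over the 5 libraries were sought among the 13265 genes whose mean was 5 CPM or more, by the SD of the log2 ratio to the sum. This is a description, since a gene and the sum share their libraries. The closest was PER1 (AT1G48130), a seed peroxiredoxin, with an SD of 0.179 against a median of 1.02 over all genes compared. It had 258, 562 and 356 CPM in dof4.1-3 and 216 and 122 CPM in Col-0. Next came AT2G38905 (a low temperature and salt responsive family protein), AT4G35160 (an O-methyltransferase), AT3G15670 (a late embryogenesis abundant protein), ATPXG2 (AT5G55240, a peroxygenase), AT1G04560 (an AWPM-19-like protein), AT2G25770, AT2G33520, AT2G40435 and MES8, with SDs of 0.186 to 0.243. Since these 10 genes were chosen for following the sum, whose groups did not overlap, their direction between the genotypes came with the choice. Their log2 fold changes ran from 1.13 to 1.62. CRA was the nearest cruciferin, with an SD of 0.246 and rank 11, and CRD (AT1G03890) the farthest, with 0.592 and rank 195.

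SESA1 had its own closest genes. The first was the cruciferin CRD, the least abundant of the 4, with an SD of 0.0876 in log2 against a median of 1.55 over all genes compared and against 0.482 to 0.735 for SESA1 with the other napins. CRD had 614, 2361 and 1264 CPM in dof4.1-3 and 319 and 175 CPM in Col-0, with a log2 fold change of 2.52 ± 0.58 (edgeR adjusted p = 0.0931). The next were AT1G14950, a polyketide cyclase family protein, and MSRB6 (AT4G04840), a methionine sulphoxide reductase, at 0.183 and 0.237. For SESA3 the closest genes were AT2G33520 at 0.153, the thionin gene AT2G15010 at 0.188 and AT2G25770 at 0.199, none of them among the 3 closest to SESA1. AT2G15010 had 66.3, 176 and 79.5 CPM in dof4.1-3 and 74.2 and 34.1 CPM in Col-0, so that its groups overlapped.

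**Figure D5:**
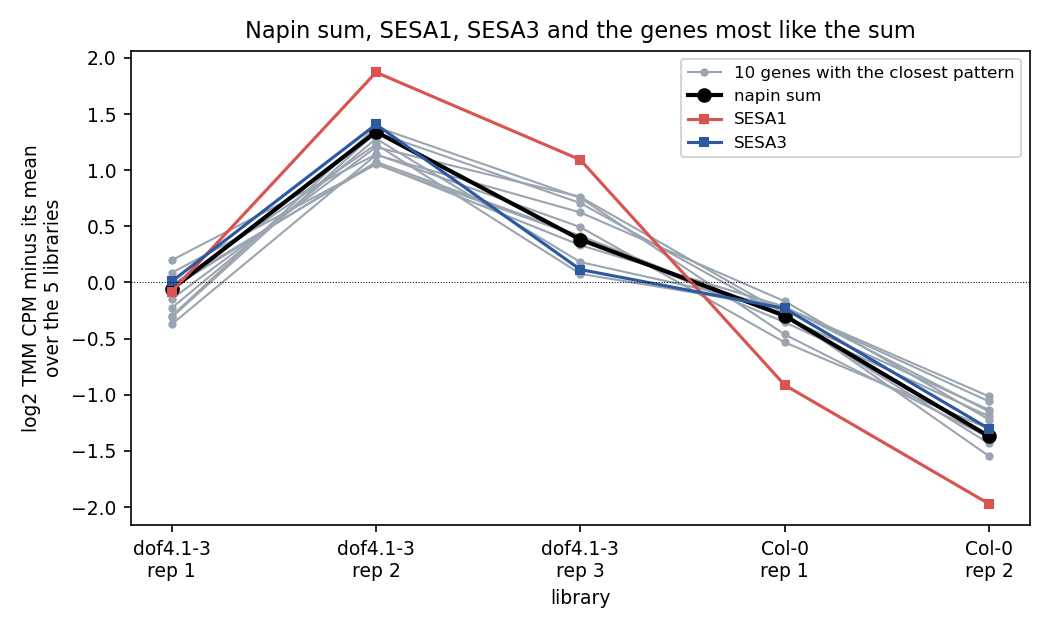
log2 CPM of the napin sum (black), SESA1 (red), SESA3 (blue) and the 10 genes closest to the sum (grey) in each library, each minus its own mean over the 5 libraries, with dof4.1-3 left of Col-0. Lines only join the values of a gene. SESA1 has a wider range than the sum, and SESA3 lies with the lower grey lines in dof4.1-3 replicate 3.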

How the data were processed

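RNA of developing seeds was sequenced by the authors as paired reads of 50 nt. The authors trimmed the reads with cutadapt, checked them with FastQC, aligned them with HISAT2 (genome TAIR10), made gene counts with htseq-count and tested genotypes with DESeq2. No tool version is given in the sources used here. Deposited are raw, unstranded counts, with 1 column per library and 0 columns of other samples. Its 9 blank lines and 5 summary lines were kept out of library sizes. Of the listed counts, 0.727% to 1.74% fell in no feature and 3.10% to 3.92% were ambiguous.

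Here counts were filtered with filterByExpr, scaled with TMM (factors 1.09, 0.849 and 0.915 for dof4.1-3, 0.983 and 1.20 for Col-0) and tested with edgeR 4.0.16 (quasi-likelihood, robust=TRUE, genotype only, 3 residual degrees of freedom) in R 4.3.3 over 19003 genes. Calls needed an adjusted p under 0.05. Shares and ratios were compared by two-sided exact permutation over libraries. Ratios to SESA5 and of the napin sum to the cruciferins were compared as log2 values. Ratios to the oleosins and of single napins to the cruciferins were compared as plain ratios, so their p-values are not on the same footing. On plain ratios the exact permutation p was 0.2 for SESA1 over SESA5 and 0.4 for napins over cruciferins, and it was unchanged for the other array genes. TPM used transcript lengths of the TAIR10.1 annotation, which held 37051 of the 37336 identifiers. Sequences are from RefSeq (TAIR10.1) and were aligned with Biopython. No 2 libraries were duplicates, with a chi-square per gene of 37.1 to 232 between pairs. On simulated counts edgeR found 37 of 100 genes changed by 1 in log2 and 87 of 100 changed by 2, with 23 false calls. These false calls were a larger part of all calls than the threshold of 0.05 aims for.

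Members, gene lists and tests were chosen with earlier results of these data known. Named genes are the 5 napins, the closest 10 genes to the napin sum and 3 each to SESA1 and SESA3, the 3 protein-coding genes on either side of each locus, and called members of each list with up to 4 others of smallest p. Alternatives were DESeq2, limma-voom, RLE and upper-quartile factors, other filters, robust=FALSE, a replicate block, trends over length or GC content removed, scaling without the 50 most abundant genes, other denominators and each library left out.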

Additional observations from a re-analysis of the deposited data

How the results depend on the processing

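The log2 fold changes of all 5 napins were positive under every alternative that was run, from 1.98 to 3.15 for SESA1, 1.00 to 2.05 for SESA2, 0.74 to 1.97 for SESA3, 0.72 to 1.92 for SESA4 and 1.11 to 2.31 for SESA5, and in each case the lowest and the highest came from leaving out a library. DESeq2 called SESA1 (2.51), SESA2 (1.43) and SESA5 (1.59). The number of genes called over the whole table was 206 in edgeR, 883 in DESeq2, 735 with no filter on low counts, 54 with the length trend removed and 4 with the length trend and a replicate block, and it ran from 0 to 888 when libraries were left out, the 0 being without Col-0 replicate 2 and the 888 without dof4.1-3 replicate 2. The cause of these shifts was not tested. The mean difference in the share of napin counts ran from -1.67 to 2.46 percentage points for SESA2 and from -4.71 to 0.0607 for SESA3 with libraries left out. With the replicate number as a block it was -1.67 for SESA2 and 0.0607 for SESA3, both opposite in sign to the values without it, because the block leaves out dof4.1-3 replicate 3, which has no partner. The correlation of deviations from the group mean was -0.234 for the libraries numbered 1 and -0.281 for those numbered 2. With 2 Col-0 libraries the deviations of one mirror those of the other. These values therefore cannot tell whether libraries of the same number were prepared together. With that block 204 genes were called, 0 of them napins, with an edgeR adjusted p of 0.169 for SESA1. The log2 ratios of the 4 array genes to SESA5 and of the napin sum to the cruciferins kept their sign under each alternative run for them. The ratios of single napins to the cruciferins were not recomputed. With 3 against 2 libraries the permutation test cannot go below 0.1, so a value under 0.05 was out of reach, while the depth, at 6159 counts or more for every napin in every library, does not limit the values.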
